A study of Mus musculus with 2 samples.

Results

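The chemokine receptor genes carried by myeloid cells, Ccr1, Ccr2, Ccrl2, Cx3cr1, Cxcr4 and Ackr3, were described in GR-1+ cells of tumors treated with anti-PD1. They were picked out by symbol with no limit on their measured values, though with earlier results of these data known, and all 6 were found among the 28692 genes listed in both count matrices. The other 19 chemokine receptor genes and lists of chemokines and signalling genes serve only for comparison.

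The study compared tumors of 4T1p, the parental clone of the mouse triple negative breast carcinoma line 4T1, which resists immune checkpoint inhibitors, with tumors of 4T1m, polyclonal cells obtained from 4T1 with the mutagen MNNG that respond to anti-PD1. Both lines were grown in the mammary fat pad of female BALB/c mice aged 8 to 10 weeks, and both groups received anti-PD1 for 2 weeks. GR-1, an antibody epitope of Ly6C and Ly6G, was used for magnetic selection, and the cells were sequenced with the 10x Genomics 3′ v3 chemistry as 1 library per tumor line. The number of tumors behind each library is not given in the sources used here, and mice given control IgG were not analysed here. With 1 library per condition no difference between the tumors could be tested, no p-value is given, and the 95% intervals below cover counting error only.

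Chemokine receptors are G protein-coupled receptors that guide leukocytes along gradients of secreted chemokines. CCR2 answers to CCL2 and its relatives and brings monocytes out of the bone marrow, CCR1 binds CCL3, CCL5 and others, CX3CR1 binds fractalkine and is carried by monocytes, macrophages and their progenitors, and CXCR4 binds CXCL12 (SDF-1) and retains cells where this chemokine is made. ACKR3 and CCRL2 are atypical receptors, which do not couple to G proteins: ACKR3 binds CXCL12 and removes it, and CCRL2 binds the attractant chemerin and presents it to other cells.

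In GRCm38, Ccr1 (ENSMUSG00000025804, chromosome 9 from 123962124 to 123968692, minus strand) and Ccr2 (ENSMUSG00000049103, chromosome 9 from 124101950 to 124113557, plus strand) lie 133257 bases apart in a cluster of receptor genes. Ccrl2 (ENSMUSG00000043953, 111054486 to 111057519, minus strand) and Cx3cr1 (ENSMUSG00000052336, 119901616 to 120069879, minus strand) are on the same chromosome. Cxcr4 (ENSMUSG00000045382, 128588199 to 128592293, minus strand) and Ackr3 (ENSMUSG00000044337, 90203980 to 90216751, plus strand) are on chromosome 1. Ccr1l1, the paralog next to Ccr1, had 0 UMIs (unique molecular identifiers, each of which stands for 1 captured RNA molecule) in both lineages described below.

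The 250 bases before the RefSeq start of 4 of these genes are shown because the genes form pairs described below: Ccr1 and Ccrl2, higher in granulocytic-like cells, and Cxcr4 and Ackr3, the receptors of CXCL12. For Cx3cr1 and Ccr2 the RefSeq start (120068296 and 124102183) lies inside the gene bounds above, since the annotation lists transcripts that begin further upstream, and 250 and 233 bases of these windows are untranslated region of such transcripts, so these 2 windows are not shown. The sequences are from GRCm38.p6, written 5′ to 3′ on the strand of the gene, and capitals mark the letters of any motif found.
Ccr1, chr9:123968693-123968942, minus strand: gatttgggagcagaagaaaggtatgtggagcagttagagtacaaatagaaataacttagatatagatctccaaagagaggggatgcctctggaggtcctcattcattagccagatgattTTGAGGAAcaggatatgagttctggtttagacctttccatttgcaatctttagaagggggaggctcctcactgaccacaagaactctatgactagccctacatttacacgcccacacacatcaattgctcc
Ccrl2, chr9:111057519-111057768, minus strand: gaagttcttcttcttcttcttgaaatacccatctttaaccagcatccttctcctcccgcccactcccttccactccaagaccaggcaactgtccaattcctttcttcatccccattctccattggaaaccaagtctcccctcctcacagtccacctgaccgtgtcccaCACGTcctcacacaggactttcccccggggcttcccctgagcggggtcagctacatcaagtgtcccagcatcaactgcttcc
Cxcr4, chr1:128592300-128592549, minus strand: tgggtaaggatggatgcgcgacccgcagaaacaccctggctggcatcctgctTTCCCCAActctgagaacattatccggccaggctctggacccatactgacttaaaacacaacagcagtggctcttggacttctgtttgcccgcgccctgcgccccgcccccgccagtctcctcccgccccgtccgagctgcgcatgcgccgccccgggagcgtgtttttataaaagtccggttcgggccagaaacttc
Ackr3, chr1:90203730-90203979, plus strand: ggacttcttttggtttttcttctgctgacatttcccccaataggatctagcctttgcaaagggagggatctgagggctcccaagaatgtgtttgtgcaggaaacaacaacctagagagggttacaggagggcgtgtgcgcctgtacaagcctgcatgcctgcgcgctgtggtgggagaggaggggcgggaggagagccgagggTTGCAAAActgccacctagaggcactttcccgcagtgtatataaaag
All 6 genes have such a window, and 6 motifs of myeloid or inducible factors were searched on both strands in them and in 32536 windows of the same length. The C/EBP motif TTNCNNAA occurs in the windows of Ccr1, Ccr2, Cxcr4 and Ackr3, and in 36.8% of all windows. The motif shared by ETS factors and IRF8, GGAANNGAA, occurs in that of Ccr2 and in 6.95% of all windows, and the hypoxia motif ACGTG in that of Ccrl2 and in 16.7% of all windows. The PU.1 motif GAGGAAG (10.7% of all windows), the AP-1 motif TGANTCA (6.73%) and the NF-κB motif GGGANTTTC (0.944%) occur in none of the 6 windows, and no motif of the 6 occurs in that of Cx3cr1. For Ccrl2, the nearest of 3 listed starts was used.

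The library labelled 4T1p held 1641 barcodes with 9021132 UMIs and a median of 2066 UMIs per barcode, and that labelled 4T1m 2749 barcodes with 14840190 UMIs and a median of 2763. The text of the study assigns these medians to the opposite tumors, so the libraries are called by the labels of their files, and which tumor is higher depends on these labels. Barcodes with 250 to 5000 genes, at most 27000 UMIs and a share of mitochondrial UMIs within the limit of the study numbered 1128 and 2092, and the libraries shared 0 barcodes. Clustering without any chemokine receptor gene gave 10 clusters. Of these, 5 carried the monocytic markers (868 and 1014 cells in the libraries labelled 4T1p and 4T1m), 4 the granulocytic markers (251 and 1022 cells) and 1 those of lymphocytes (9 and 56 cells). All 10 monocytic markers were found in monocytic-like cells, where their summed level was 46043 and 24338 CPM (UMIs scaled to a total of 1e+06 per group) in the libraries labelled 4T1p and 4T1m, against 1196 and 966 CPM in granulocytic-like cells. The 8 granulocytic markers summed to 163860 and 165023 CPM in granulocytic-like cells, against 980.5 and 1352 CPM in monocytic-like cells. Pairs of values below are in this order, 4T1p before 4T1m.

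The receptors divided between the lineages in the same way in both libraries. Ccr2 and Cx3cr1 were nearly confined to monocytic-like cells, Ackr3 was low and mostly monocytic, Ccr1 and Ccrl2 were present in both lineages and several times higher in granulocytic-like cells, and Cxcr4 differed least. The receptor for CCL2, Ccr2, was measured at 312 CPM (95% interval 296 to 328) and 416 CPM (401 to 431) in monocytic-like cells, against 7.25 CPM (2.66 to 15.8) and 10.4 CPM (7.17 to 14.6) in granulocytic-like cells. The log2 ratio of monocytic-like over granulocytic-like cells was 5.43 (4.30 to 6.87) and 5.32 (4.83 to 5.86). For Cx3cr1, the fractalkine receptor, the levels were 241 and 182 CPM in monocytic-like cells and 7.25 and 6.63 CPM in granulocytic-like cells, and the log2 ratio was 5.06 (3.93 to 6.51) and 4.78 (4.16 to 5.48). No Cx3cr1 UMI was counted in the 65 lymphocytes, where a floor of 3 counts is 8.07 CPM.

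The few UMIs of Ccr2 and Cx3cr1 in granulocytic-like cells amount to 2.33% and 2.50% of the monocytic level for Ccr2 and 3.01% and 3.64% for Cx3cr1, and the monocytic marker list as a whole has 2.60% and 3.97% of its monocytic level there. Only Cx3cr1 in the library labelled 4T1p is above the share of the list, and the source of these UMIs was not tested. Thinned to 1000 UMIs per cell, 19.4% and 27.4% of monocytic-like cells had a Ccr2 UMI, against 0.873% and 1.07% of granulocytic-like cells. Before thinning the shares were 30.3% and 44.3% of monocytic-like cells, at median depths of 1601 and 3756 UMIs, and 1.99% and 2.84% of granulocytic-like cells, at 2717 and 2482 UMIs.

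Ccr1, a receptor for CCL3 and CCL5, stood at 268 CPM (253 to 283) and 337 CPM (324 to 351) in monocytic-like cells and at 1039 CPM (970.5 to 1111) and 1064 CPM (1028 to 1100.4) in granulocytic-like cells. Its log2 ratio of monocytic-like over granulocytic-like cells was −1.96 (−2.08 to −1.83) and −1.66 (−1.73 to −1.58). Ccrl2, the chemerin-binding receptor, was at 1181 and 1212 CPM in monocytic-like cells against 6199 CPM (6030.2 to 6371) and 3751 CPM (3684 to 3819) in granulocytic-like cells, a log2 ratio of −2.39 (−2.45 to −2.34) and −1.63 (−1.67 to −1.59). Unlike the granulocytic marker list, which has 0.598% and 0.819% of its granulocytic level in monocytic-like cells, Ccr1 has 25.8% and 31.7% there and Ccrl2 19.0% and 32.3%, which is above the share of that list. After thinning, 63.8% and 62.7% of granulocytic-like cells had a Ccr1 UMI and 83.0% and 76.1% a Ccrl2 UMI, against 16.6% and 22.6% and 42.6% and 46.8% of monocytic-like cells.

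Cxcr4, the CXCL12 receptor, was measured at 123 CPM (113 to 133) and 65.0 CPM (59.3 to 71.1) in monocytic-like cells and at 173 CPM (146 to 203) and 114 CPM (102 to 126) in granulocytic-like cells. The log2 ratio was −0.49 (−0.76 to −0.22) and −0.81 (−1.01 to −0.61), under 2-fold in both libraries. Ackr3, the scavenger of the same chemokine, stood at 15.4 CPM (12.03 to 19.4) and 28.0 CPM (24.3 to 32.1) in monocytic-like cells. Granulocytic-like cells held 0 Ackr3 UMIs in the library labelled 4T1p, which allows up to 3.62 CPM with the floor of 3 counts and makes the monocytic level at least 4.24-fold higher. They held 11 in the other library, 3.47 CPM (1.73 to 6.21) and 8.07-fold below the monocytic level, and 8 of these 11 UMIs came from 1 cell. With doublets left out the log2 ratio in this library was 6.45 (3.95 to 11.8), and with the lineage taken cell by cell from the marker lists it was 0.96 (0.47 to 1.48).

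Counted against all genes with at least 50 UMIs in the compared cells, 3 members were at least 2-fold higher in monocytic-like cells in each library (Ccr2, Cx3cr1 and Ackr3), where 49.9% and 54.2% of genes were. A further 2 were at least 2-fold lower (Ccr1 and Ccrl2), where 11.1% and 10.5% of genes were. The median log2 ratio over all genes was itself 0.99 and 1.21, toward monocytic-like cells, and was 0.45 and 0.35 with TMM scaling and to 0.31 and 0.24 with median of ratios scaling. The higher count is thus close to the share of all genes, and relative to the median gene the deficits of Ccr1, Ccrl2 and Cxcr4 are larger than the values above. With either scaling Cxcr4 was past 2-fold lower as well (−1.04 and −1.67 with TMM). Of the tested genes, 95.4% and 97.6% had a lower ratio than Ccr2, and 2.60% and 5.64% a lower one than Ccrl2.

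**Figure D1:**
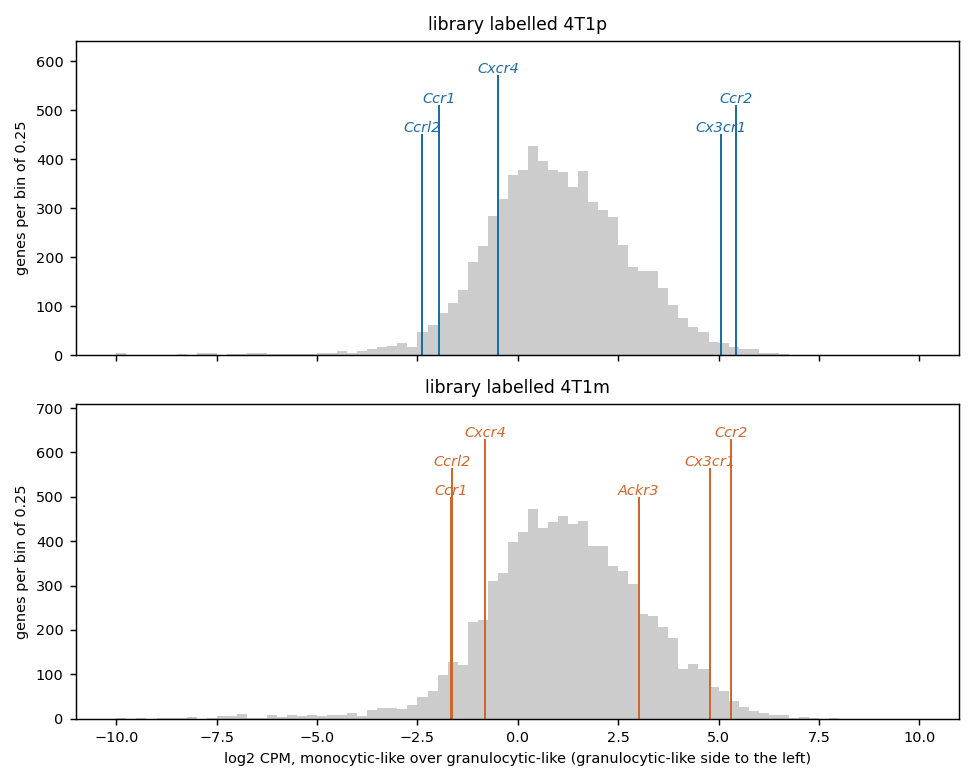
Histogram of the log2 ratio of CPM in monocytic-like over granulocytic-like cells (x axis) against the number of genes per bin (y axis), 1 panel per library, for genes with at least 50 UMIs, with the members as vertical lines of arbitrary height. Only genes with UMIs in both lineages are drawn, 6832 of 7115 tested genes for 4T1p and 8471 of 8566 for 4T1m. Ccr2 and Cx3cr1 stand at the right edge in both panels, Ccr1 and Ccrl2 at the left, and Ackr3 is drawn only for the library labelled 4T1m because its ratio in the other is a bound.

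Levels also differed between clusters of a lineage. The monocytic-like clusters are named by their first leading gene: Thbs1 (97 and 338 cells, with Vcan and Ednrb), Ccl5 (192 and 181 cells, with Cx3cr1 itself, Cxcl9 and Ifnb1), Cxcl9 (240 and 81 cells, with Ccl8 and the class II gene H2-Eb1), 2810417H13Rik (109 and 98 cells, with the cell cycle genes Birc5 and Top2a) and Fabp5 (230 and 316 cells). Median depths per cell were 10572 and 10626.5 UMIs in the Thbs1 cluster and 14073.5 and 12783 in the Ccl5 cluster, but 900.5 and 903.5 in the Fabp5 cluster. The granulocytic-like clusters are Ccdc126 (87 and 343 cells), Mirt1 (102 and 258 cells), Slc2a3 (39 and 264 cells) and Camp (23 and 157 cells, with the granule genes Ngp and Ltf).

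Cx3cr1 stood at 352 and 372 CPM in the Ccl5 cluster, which held 68.4% of all its UMIs, at 251 and 385 CPM in the Cxcl9 cluster and at 236 and 251 CPM in the 2810417H13Rik cluster. The interval of the Cxcl9 cluster overlapped that of the Ccl5 cluster only in the library labelled 4T1m, and that of the 2810417H13Rik cluster in both. In the Thbs1 cluster, of similar depth to the Ccl5 cluster, Cx3cr1 was at 54.5 CPM (41.3 to 70.6) and 70.6 CPM (62.5 to 79.5), which did not separate from the Fabp5 cluster (67.0 and 58.4 CPM). The log2 ratio of the Thbs1 over the Ccl5 cluster was −2.69 (−3.10 to −2.30) and −2.40 (−2.60 to −2.201).

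Ackr3 had the reverse pattern. The Thbs1 cluster held 80.1% of its UMIs, at 48.7 CPM (36.3 to 64.1) and 47.3 CPM (40.7 to 54.7), against 6.64 and 6.50 CPM in the Ccl5 cluster. The log2 ratio of the Thbs1 over the Ccl5 cluster was 2.88 (2.04 to 3.79) and 2.86 (2.10 to 3.73). Cxcr4 was also higher in the Thbs1 cluster, at 197 and 81.7 CPM against 124.5 and 54.6 CPM, by less than 2-fold (log2 ratio 0.66 and 0.58). Between these clusters 5.08% and 4.63% of genes were at least 2-fold higher and 5.1% and 4.13% at least 2-fold lower, and Ackr3 and Cx3cr1 were the only members among them, 1 in each direction. The clusters were built from the same cells, with the receptors left out of the genes used, and Cx3cr1 is among the leading genes of the Ccl5 cluster, so these differences describe the clusters and were not tested.

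Endothelial cells and fibroblasts also carry Ackr3 in many tissues, so the markers of both were summed within the Thbs1 cluster. The 20 and 76 cells with an Ackr3 UMI had 45.6 and 52.0 CPM of the endothelial markers Pecam1, Cdh5 and Kdr, against 46.0 and 36.3 CPM in the 77 and 262 cells without one. Fibroblast markers stood at 0 and 1.00 CPM in cells with an Ackr3 UMI and at 0 and 1.74 CPM in the others. Monocytic markers stood at 17753 and 12181 CPM in cells with an Ackr3 UMI and at 21682 and 15578 CPM in the others. Granulocytic markers were higher in cells with an Ackr3 UMI, at 671 and 1644 CPM against 347 and 1294 CPM. These cells were also deeper, with medians of 12001 and 12652 UMIs against 10036 and 10000.5, and mixed barcodes were not tested.

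Ccr2 was spread over the monocytic-like clusters, from 383 and 500.3 CPM in the Ccl5 cluster through 306 and 419.7 CPM in the 2810417H13Rik cluster, 272 and 401 CPM in the Thbs1 cluster and 245 and 426 CPM in the Cxcl9 cluster to 90.1 and 189.8 CPM in the Fabp5 cluster. In the library labelled 4T1p each of the first 4 overlapped its neighbor in this order, and the Fabp5 cluster was separate below them. Among the same clusters Ccr1 ranged from 97.1 and 102 CPM (Fabp5) to 333 and 393 CPM (Ccl5), and Cxcr4 from 14.1 and 8.74 CPM in the cell cycle cluster, from 4 and 3 UMIs, to the values of the Thbs1 cluster.

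Among granulocytic-like clusters, Ccrl2 was highest in the Mirt1 cluster, which also carries G0s2 and Hdc, at 9937 and 6921 CPM, and next in the Ccdc126 cluster at 6925 and 4439 CPM. It was at 1644 and 1846 CPM in the Camp cluster, whose granule genes are those of immature neutrophils, and at 1390.1 and 1616 CPM in the Slc2a3 cluster. Ccr1 followed a flatter order, with 1293 and 1482 CPM (Mirt1), 1099.9 and 1167 CPM (Ccdc126), 1031 and 873 CPM (Slc2a3) and 577 and 757 CPM (Camp). Cxcr4 stood at 251 and 192 CPM (Mirt1), 179 and 98.1 CPM (Ccdc126), 168 and 158 CPM (Slc2a3) and 44.0 and 46.6 CPM (Camp), and in the library labelled 4T1p the first 3 overlapped. The Mirt1 over the Camp cluster gave a log2 ratio of 2.60 (2.43 to 2.76) and 1.91 (1.83 to 1.98) for Ccrl2, 2.51 (1.52 to 3.69) and 2.05 (1.57 to 2.55) for Cxcr4, and 1.16 (0.86 to 1.47) and 0.97 (0.84 to 1.102) for Ccr1. All 3 members with enough UMIs were thus at least 2-fold higher in the library labelled 4T1p, where 36.5% of genes were, and 2 of 3 in that labelled 4T1m, where 18% of genes were.

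**Figure D2:**
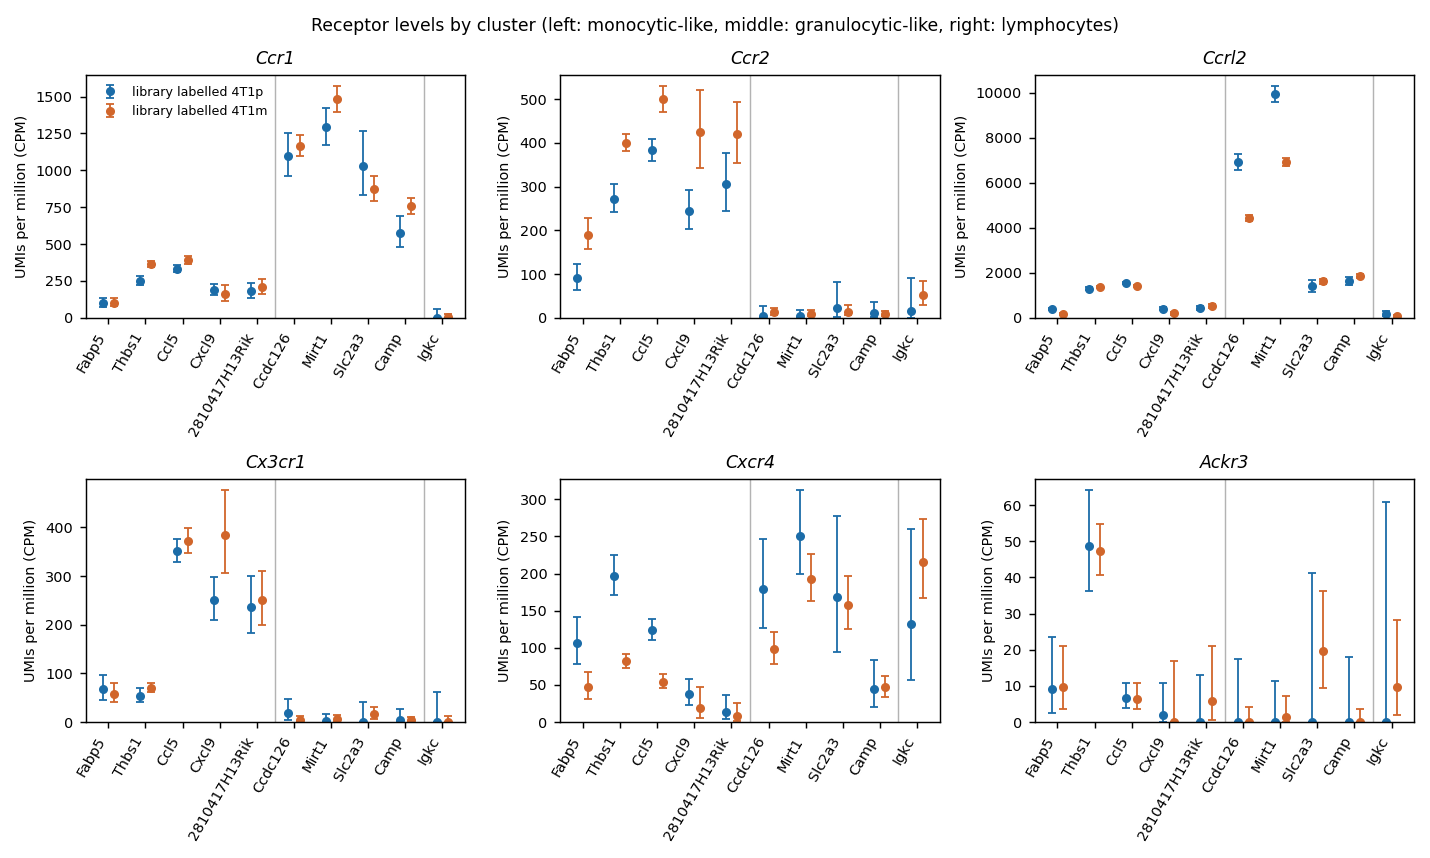
Level of each receptor in CPM (y axis, a separate linear scale per panel starting at 0) in the 10 clusters (x axis, named by their leading gene), with points for the 2 libraries and bars for the exact 95% Poisson interval. Ccr2 and Cx3cr1 are near 0 in every granulocytic-like cluster, Ackr3 peaks in the Thbs1 cluster, Ccrl2 in the Mirt1 cluster, and Cxcr4 is lower in the library labelled 4T1m in the Thbs1, Ccl5 and Fabp5 clusters.

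The question the design poses is whether the receptors differ between the resistant and the responsive tumor. In all monocytic-like cells together, Cxcr4 was lower in the library labelled 4T1m (65.0 CPM from 478 UMIs, against 123 CPM from 575 UMIs), a log2 ratio of 4T1m over 4T1p of −0.92 (−1.10 to −0.74), and 2.42% of tested genes had a lower ratio. Thinned to 1000 UMIs per cell, which leaves out the shallowest cells and gives the others equal weight, this ratio was −0.33 (−0.94 to 0.29), an interval that holds 0. Cx3cr1 was lower too, at −0.41 (−0.52 to −0.29). Ccr1, at 0.33 (0.23 to 0.43), Ccr2, at 0.42 (0.33 to 0.51), and Ackr3, at 0.87 (0.47 to 1.27), were higher, and the interval of Ccrl2, at 0.04 (−0.01 to 0.09), held 0. No member was past 2-fold, as 9.4% of the 9031 tested genes were in either direction, and the median of all these genes was 0.11.

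These pooled values combine different mixtures of clusters. The Thbs1 cluster held 22.3% of the monocytic-like UMIs in the library labelled 4T1p and 52.6% in that labelled 4T1m, and the Ccl5 cluster 51.5% and 31.4%. Computed with the same mixture of clusters in both libraries, a choice made after the data were seen, the log2 ratio was −1.23 for Cxcr4, 0.50 for Ccr2, 0.34 for Ccr1, 0.16 for Cx3cr1, −0.03 for Ackr3 and −0.04 for Ccrl2. The differences of Cx3cr1 and Ackr3 were thus not seen within equal mixtures, and that of Cxcr4 was larger.

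Within clusters Cxcr4 was lower in the library labelled 4T1m by 2.41-fold in the Thbs1 cluster (log2 ratio −1.27, −1.53 to −1.01, 206 and 316 UMIs), where 1.45% of genes were at least 2-fold lower. It was lower by 2.28-fold in the Ccl5 cluster (−1.19, −1.50 to −0.88, 300 and 126 UMIs), where 1.31% were, and by 2.26-fold in the Fabp5 cluster (−1.18, −1.90 to −0.48, 46 and 29 UMIs), where 1.75% were. In the Thbs1 cluster 60.8% and 40.2% of cells had a Cxcr4 UMI, and 14.1% and 8.33% after thinning. In the Ccl5 cluster the shares were 48.4% and 31.5%, and 11.4% and 5.75% after thinning. The thinned shares of the Thbs1 and Ccl5 clusters come from at most 97 and 192 cells of the library labelled 4T1p. They are given without intervals, so a difference beyond counting error is not claimed for them. The Cxcl9 and 2810417H13Rik clusters had too few Cxcr4 UMIs for a ratio (19 and 4, and 4 and 3). At Louvain resolution 1.2, only the monocytic-like cluster led by Aif1 and Gngt2 (174 and 128 cells) went the other way. Its Cxcr4 level was 37.5 CPM (17.2 to 71.2) and 55.3 CPM (31.6 to 89.9), from 9 and 16 UMIs, also too few for a ratio. Over all monocytic-like cells the thinned shares, 7.16% (5.18 to 9.58) and 5.63% (4.12 to 7.48), had overlapping intervals.

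Ccr2 was higher in the library labelled 4T1m in the 5 monocytic-like clusters at this resolution, with log2 ratios of 0.56 (0.37 to 0.74) in the Thbs1, 0.38 (0.26 to 0.51) in the Ccl5, 0.80 (0.39 to 1.196) in the Cxcl9, 0.45 (0.06 to 0.86) in the 2810417H13Rik and 1.07 (0.54 to 1.64) in the Fabp5 cluster. At Louvain resolution 1.2, 1 of 8 monocytic-like clusters, led by Rnase2a and Fcna (44 and 33 cells), went the other way, at 315 CPM (242 to 404) and 145 CPM (96.8 to 208). The value of the Fabp5 cluster is past 2-fold, as 7.7% of genes in that cluster were, and this cluster is the shallowest. Ccrl2 was past 2-fold lower in the library labelled 4T1m in the Fabp5 cluster (−1.20, −1.56 to −0.84) and in the Cxcl9 cluster (−1.04, −1.55 to −0.56, where 3.4% of genes were), but close to even in the deep Thbs1 (0.08) and Ccl5 (−0.10) clusters. At Louvain resolution 1.2, 1 cell of the library labelled 4T1p held 32 of 97 Ccrl2 UMIs in the cluster led by Fabp5 and Lgals1. In that led by Mgl2 and Cxcl9, 1 cell of this library held 31 of 245. The Ccrl2 ratios were not recomputed without such cells. In the Fabp5 cluster, where Cxcr4, Ccrl2 and Ccr2 were all past 2-fold, the markers of other cell types differed as well, with 2.31 and 285.5 CPM of fibroblast markers, 132 and 29.2 CPM of endothelial markers and 183 and 102 CPM of tumor or epithelial markers, and their part in these results was not tested. A fibroblast marker was found on average in 0.549% of the cells of this cluster, so its UMIs came from few barcodes. Cx3cr1 was even in the Ccl5 cluster, at 0.08 (−0.06 to 0.22), and higher in the library labelled 4T1m in the Cxcl9 cluster, at 0.62 (0.20 to 1.02). At Louvain resolution 1.2, the cluster led by Mgl2 and Cxcl9 had 42 cells in the library labelled 4T1m. There 1 cell held 26 of 61 Cx3cr1 UMIs, and 1 cell held 31 of 70 Ccr2 UMIs. The counting intervals do not cover such weight of single cells, whose part in the values of the Cxcl9 cluster was not tested. Ackr3 in the Thbs1 cluster, with 51 and 183 UMIs, had a ratio of −0.04 (−0.50 to 0.43).

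In granulocytic-like cells Ccrl2 was lower in the library labelled 4T1m, at 3751 against 6199 CPM, a log2 ratio of −0.72 (−0.77 to −0.68), and with the same mixture of clusters of −0.44. The Mirt1 cluster held 39.0% and 24.4% of the granulocytic-like UMIs, and the Camp cluster 24.7% and 32.5%. Within clusters, Ccrl2 was lower in the library labelled 4T1m in the 2 with most of it. These were Mirt1 (−0.52, −0.59 to −0.46) and Ccdc126 (−0.64, −0.73 to −0.55). A lower level was not seen in the Slc2a3 (0.22, −0.06 to 0.50) and Camp (0.17, −0.00 to 0.34) clusters. Cxcr4 was lower as well, by 1.52-fold (−0.60, −0.88 to −0.31), with its clearest difference in the Ccdc126 cluster (−0.87, −1.44 to −0.28). It was close to even in the Slc2a3 cluster (168 and 158 CPM) and the Camp cluster (44.0 and 46.6 CPM). Thinned to 1000 UMIs per cell, the Cxcr4 ratio over all granulocytic-like cells was −0.28. Ccr1 was even, at 0.03 (−0.07 to 0.14). None of the 3 members with at least 50 UMIs was past 2-fold, as 10.4% of the 4491 tested genes were, and the median of those genes was 0.06. Of these, 7.28% had a lower ratio than Ccrl2 and 10.5% a lower one than Cxcr4. Ccr2 and Cx3cr1, with 39 and 27 UMIs in all granulocytic-like cells, and Ackr3 were not compared.

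**Figure D3:**
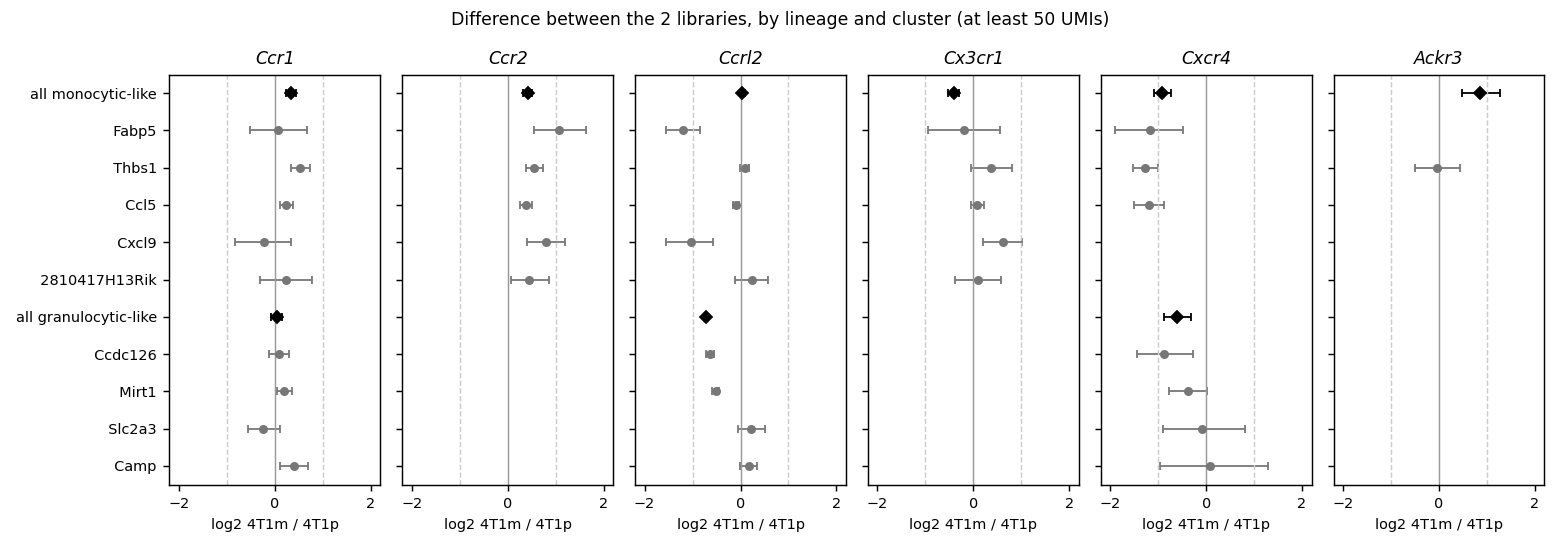
Log2 ratio of CPM, library labelled 4T1m over that labelled 4T1p (x axis), for each receptor in both lineages (black diamonds) and in their clusters (gray circles), where the 2 libraries together had at least 50 UMIs. Bars are 95% counting intervals and dashed lines mark 2-fold. Cxcr4 lies left of 0 in both lineages and left of the 2-fold line in the Fabp5, Thbs1 and Ccl5 clusters, and Ccr2 lies right of 0 in each monocytic-like cluster.

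The study names Cx3cr1, Ly86 and Irf8 as genes of its cluster of monocyte-dendritic and common monocyte progenitors. Cells with UMIs of both Ly86, a partner of the receptor RP105, and Irf8, a transcription factor of monocyte and dendritic cell development, were therefore compared with the other monocytic-like cells without using Cx3cr1 (262 and 345 cells against 606 and 669). They were far deeper, with medians of 13709.5 and 13525 UMIs against 1057 and 1527, and a cell with more UMIs has more chance to show both genes. Cx3cr1 was at 289 and 236 CPM in them against 118 and 85.7 CPM, a log2 ratio of 1.29 (1.049 to 1.55) and 1.46 (1.25 to 1.67). Ackr3 was at 12.8 and 18.4 CPM against 21.9 and 45.1 CPM, a ratio of −0.78 (−1.49 to −0.05) and −1.29 (−1.71 to −0.88). Of all genes 4.62% and 3.26% were past 2-fold in either direction.

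Within the Thbs1 and Ccl5 clusters alone, 171 and 282 cells had both genes and 118 and 237 did not, with medians of 16666 and 14701 UMIs against 2479 and 7853. There the ratio was 1.63 (1.26 to 2.03) and 1.76 (1.499 to 2.04) for Cx3cr1, past 2-fold higher as 3.24% and 3.1% of genes were. For Ackr3 it was −1.63 (−2.37 to −0.87) and −1.66 (−2.09 to −1.24), past 2-fold lower as 3.07% and 1.62% of genes were. Cxcr4 was at 129 and 61.9 CPM in cells with both genes against 219.7 and 93.2 CPM in the others, a ratio of −0.76 (−1.05 to −0.47) and −0.59 (−0.87 to −0.31). Ccr2 differed in sign between the libraries (−0.21 and 0.40), as did Ccrl2 (0.19 and −0.04), and Ccr1 was at −0.26 and −0.00. The Ccl5 cluster holds more of both Cx3cr1 and the cells chosen this way. As the 2 clusters were pooled, these values do not separate the choice of cells from the cluster. Cells with and without both genes were not compared inside each cluster.

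Members were also counted together in single cells. Among cells thinned to 1000 UMIs, 64.7% and 72.1% of monocytic-like cells had a UMI of at least 1 member, 36.3% and 38.1% of exactly 1, and 19.7% and 24.2% of exactly 2. Of granulocytic-like cells 91.7% and 89.2% had at least 1, and 54.1% and 46.8% exactly 2. For pairs, 840 monocytic-like cells thinned to 3000 UMIs were used, and the expected number was the product of the single shares within each cluster and library. Ccr2 and Cx3cr1 met in 126 cells, 122.7 expected. Il6ra, the interleukin-6 receptor gene, was added because the study shows it together with Cxcr4. Cxcr4 and Il6ra met in 28 cells, 29.1 expected. Ccr1 and Ccr2 met in 244 cells, 224.1 expected, and Cx3cr1 and Il6ra in 63, 48.7 expected. Cx3cr1 and Ackr3 met in 2 cells, 6.19 expected. Thinned to 1000 UMIs in 1355 cells, the observed over the expected number was 0.94 for Ccr2 and Cx3cr1, 1.14 for Cxcr4 and Il6ra, 1.22 for Ccr1 and Ccr2, 0.78 for Cx3cr1 and Il6ra and 1.12 for Cx3cr1 and Ackr3. With both libraries pooled, the 95% counting interval of the observed number held the expected number for all 21 pairs at both depths. Within single libraries the expected number lay outside for Cx3cr1 and Il6ra at 3000 UMIs in that labelled 4T1p, which met in 32 cells (21.9 to 45.2) where 21.4 were expected, against 31 cells (21.1 to 44.0) and 27.3 expected in the other.

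**Figure D4:**
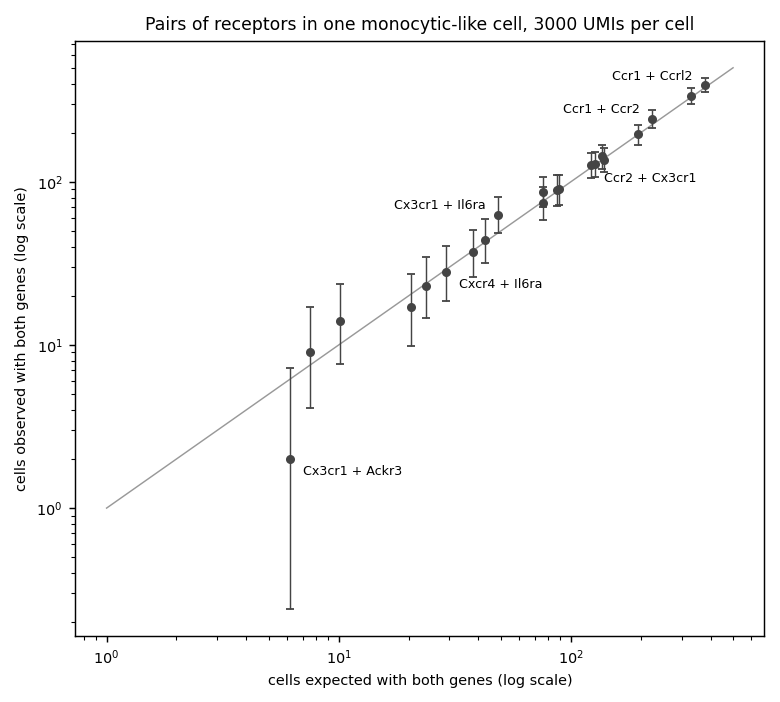
Number of monocytic-like cells with UMIs of both genes of a pair (y axis, log scale) against the number expected from the single shares within cluster and library (x axis, log scale), for the 6 receptors and Il6ra in 840 cells thinned to 3000 UMIs. Bars are 95% counting intervals, which do not hold the single shares fixed and are too wide for common genes. The gray line marks equality. The points lie along the line, and Cx3cr1 with Ackr3 (2 cells, 6.19 expected) is the farthest from it, with a bar that still reaches it.

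Across the 18 groups of cluster and library with at least 30 cells, the members paired by their levels. The correlation of log2(CPM + 10) was 0.91 between Ccr1 and Ccrl2, 0.88 between Ccr2 and Cx3cr1 and −0.69 between Cx3cr1 and Cxcr4. The groups span all lineages, so the division between lineages described above enters these values. They also share 2 libraries and the clusters differ in depth, so the values are descriptions. Among 6418 genes, those most like Ccr1 were C5ar1, the receptor for complement C5a (r = 0.95), Emilin2 (0.95) and Rab20 (0.95). Ccrl2 was closest to Ccl3 (0.98), the ligand of CCR1, Rab20 (0.97) and the neutrophil attractant Cxcl2 (0.96). For Ccr2 these were Dse (0.97), Vwa5a (0.97) and Gusb (0.97), and for Cx3cr1 Fads1 (0.97), Ptgs1 (0.97), which encodes cyclooxygenase 1, and Ccl12 (0.96), a ligand of CCR2. Cxcr4 was less close to any gene, with Gm12840 (0.86), Junb (0.85), an AP-1 subunit, and Furin (0.84). In the Thbs1 cluster these genes were also lower in the library labelled 4T1m, at log2 ratios of −1.38, −0.52 and −0.69 in this order. In the Ccl5 cluster the ratio was −1.78 for Gm12840, −1.11 for Junb and −0.16 (−0.37 to 0.05) for Furin. The likeness was computed over the same groups, and a link to the difference of Cxcr4 was not tested. Ackr3 was nearest to Ednrb (0.88), the endothelin B receptor, Pgf (0.85) and Plpp3 (0.85).

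Within the Thbs1 cluster Ednrb was not higher in cells with an Ackr3 UMI. It stood at 49.7 and 43.0 CPM in them and at 99.4 and 95.2 CPM in the others, values given without intervals. At Louvain resolution 1.2 Ednrb was a leading gene of a cluster led by Cd163 and Lyve1 (19 and 83 cells). Ackr3 stood at 64.8 and 24.0 CPM there, against 45.3 and 53.4 CPM in the cluster led by Thbs1 and Sdc1. The part of these finer clusters in the Ednrb values was not tested.

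The other receptors, the ligands and the signalling genes give the setting of the members. Of the 19 other receptors, 4 had at least 50 UMIs in monocytic-like cells. Only Ccr7, the receptor that leads dendritic cells to lymph nodes, was past 2-fold between the libraries, at 20.4 CPM in that labelled 4T1m against 1.07 CPM. The dendritic cell markers Flt3, Zbtb46 and Siglech together had 0 and 15 UMIs in these cells. In the shallow Fabp5 cluster 1 of 2 other receptors with enough UMIs was past 2-fold higher in the library labelled 4T1m, where 7.7% of genes were. The part of other cell types in the Ccr7 value was not tested. In granulocytic-like cells only Cxcr1 and Cxcr2, the neutrophil receptors for CXCL chemokines, had enough UMIs, and neither was past 2-fold (−0.47 and 0.10). Between lineages Cxcr2 was at 349 and 374 CPM in granulocytic-like cells against 4.48 and 7.62 CPM in monocytic-like cells, which is 1.28% and 2.04% of the granulocytic level and above the share of the granulocytic marker list. Cmklr1, the signalling receptor for chemerin, was on the monocytic side (log2 ratio 5.69 and 4.54).

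Of the 14 ligands, 13 were listed and 10 had enough UMIs in monocytic-like cells. Between the libraries 1 was past 2-fold, Ccl8, a chemokine of the CCL2 family, at 284 CPM in the library labelled 4T1m against 878 CPM. The CCR2 ligands Ccl2 (814 and 962 CPM), Ccl7 (744 and 769.9 CPM) and Ccl12 (433 and 439 CPM) were near even. In granulocytic-like cells 1 of 9 was past 2-fold, Ccl2 at 26.6 and 99.7 CPM. Ccl3, a ligand of CCR1, was the 1 ligand past 2-fold toward granulocytic-like cells (7532 and 6116 CPM, against 1356 and 1383 CPM), as its receptor Ccr1 was. Of the 10 ligands with enough UMIs, 7 and 8 others were past 2-fold toward monocytic-like cells, where 49.9% and 54.2% of all genes were. Cxcl12 and Cx3cl1, the ligands of the CXCR4 and ACKR3 pair and of CX3CR1, did not reach 50 UMIs in these comparisons. Of the 20 signalling genes, 19 could be compared between the libraries for the monocytic-like cells, 18 for the granulocytic-like ones, and 1 was past 2-fold, Grk5, a kinase that desensitizes receptors (3.20 and 8.71 CPM in monocytic-like cells). Between lineages 6 and 5 of 18 and 20 signalling genes were past 2-fold higher in monocytic-like cells and 2 and 3 lower. Of all genes 49.9% and 54.2% were past 2-fold higher there and 11.1% and 10.5% lower, so the higher count is below the share of all genes. Grk3, another receptor kinase, had 92 UMIs in monocytic-like and 0 in granulocytic-like cells in the library labelled 4T1p, and 193 and 3 in the other, while Gnai3, a G protein subunit that chemokine receptors couple to, was lower in monocytic-like cells (log2 ratio −1.52 and −1.12). Rgs1, which shortens G protein signalling, was higher in monocytic-like cells (1636 and 1467 CPM against 136 and 86.5 CPM), while Rac2, a GTPase of neutrophil migration, was higher in granulocytic-like cells (593 and 544 CPM against 274 and 212 CPM). Over the lists, the median log2 ratio between the libraries in monocytic-like cells was 0.31 for the other receptors, 0.04 for the ligands and −0.01 for the signalling genes, beside 0.19 for the members and 0.11 for all genes tested.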

How the data were processed

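Single-cell RNA of GR-1+ tumor cells was counted in 2 libraries, 1 per tumor line, and the 10x matrices hold unnormalized UMI counts per gene and barcode that the authors deposited after Cell Ranger on mm10. The headers of the deposited matrices give software version 3.1.0, while the methods of the study name another. Annotation was GRCm38. The members and all gene lists were chosen with earlier results of these data known.

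Barcodes were filtered by genes, UMIs and mitochondrial share as the study states, without its requirement of a Ptprc UMI. Of the kept barcodes, 518 of 1128 had such a UMI in the library labelled 4T1p and 1575 of 2092 in that labelled 4T1m. With this requirement the monocytic-like cells numbered 335 and 609, against 868 and 1014 without it. Ptprc was found in 91.3% of cells in the Thbs1 and 82.8% in the Ccl5 cluster. The share was 17.8% in the Fabp5, 27.7% in the Cxcl9 and 24.2% in the 2810417H13Rik cluster. Both libraries were merged, normalized with SCTransform (sctransform 0.4.2, Seurat 5.3.0, R 4.3.3, Matrix 1.6.5) and clustered with 11 principal components and Louvain resolution 0.8, using 2988 of 3000 variable genes after 12 chemokine receptors were removed. A cluster was assigned to a lineage from fixed markers without chemokine receptors. Doublets were ranked with Scrublet (scanpy 1.11.5) and kept. Counts were summed per lineage, cluster and library (Python 3.11.15, numpy 2.4.6, pandas 2.3.3, scipy 1.17.1, matplotlib 3.10.9). CPM carry exact Poisson intervals, shares of cells exact binomial intervals, and log2 ratios an interval derived from the binomial share that 1 group has of both groups' UMIs, all at 95%. Members and genes are counted as past 2-fold at an absolute log2 ratio of 1 with at least 50 UMIs in both groups together, and a zero was given a floor of 3 counts over the group. Shares were compared after each cell was thinned to 1000 UMIs, and pairs after thinning to 3000. The ratio and interval step was tested on simulated data.

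Genes named are the 6 members, the 3 genes most like each of them, Il6ra, Ly86 and Irf8, and, of 19 other receptors, 14 ligands and 20 signalling genes, some of those past 2-fold, up to 5 per list by size, with the rest given as counts. Ligands and receptors of the members under 2-fold were named after their values were seen. Likeness was the correlation over clusters with at least 30 cells, for genes with at least 200 UMIs. Values of 1 gene of these lists are not reported here. Grk2 and Grk3 were matched by identifier to older symbols. Alternatives were other cell filters, doublet removal, clustering settings, lineage by single cell, TMM (edgeR 4.0.16) and median of ratios (DESeq2 1.42.0) scaling, thinning, equal weight of cells, and other count minimums. With 1 library per condition no model across genes was fitted.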

Additional observations from a re-analysis of the deposited data

Results flagged for a closer look

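Ccrl2 had opposite signs in the 2 lineages between the libraries. The log2 ratio of 4T1m over 4T1p was −0.72 in granulocytic-like cells and 0.037 in monocytic-like cells, the difference was not tested, and 6 of 16 alternatives gave the monocytic value the other sign.

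Receptor UMIs were also found in barcodes outside the reported comparisons, above the limit that a count of 0 allows. The 1003 barcodes above the mitochondrial limit, with a median of 2259 UMIs, held Ccr1 at 384 CPM, Ccr2 at 127 CPM, Ccrl2 at 1246 CPM, Cx3cr1 at 94.3 CPM, Cxcr4 at 52.6 CPM and Ackr3 at 4.78 CPM, against a limit of 0.956 CPM. The 115 barcodes above the gene or UMI limit, some of which enter the alternative without that limit, with a median of 33272 UMIs, held Ccr1 at 257 CPM, Ccr2 at 274 CPM, Ccrl2 at 942 CPM, Cx3cr1 at 293 CPM, Cxcr4 at 43.1 CPM and Ackr3 at 15.2 CPM, against a limit of 0.711 CPM. In the 52 barcodes with fewer than 250 genes and within the other limits, with a median of 872 UMIs, Ccrl2 stood at 131 CPM from 13 UMIs, against a limit of 30.3 CPM.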

How the results depend on the processing

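No paired analysis was possible because each condition has 1 library. Over 16 alternatives, 335 of 350 log2 ratios of the members kept their direction and 266 stayed within the counting interval of the reported value. These counts include alternatives that could not change a ratio. Louvain resolutions 0.4 and 1.2, and leaving out shared barcodes, kept the same numbers of cells per lineage and library and the same median ratio over all genes. With receptors among the variable genes 1 group changed, from 1014 to 1015 cells. The lineage ratios kept their direction under every alternative that gave a value. Between the libraries, the sign changed in monocytic-like cells for Ccrl2 under 6 alternatives, Ackr3 under 2 (−0.03 with the same mixture of clusters, −0.35 thinned) and Cx3cr1 under 1 (0.16 with the same mixture), and in granulocytic-like cells for Ccr1 and Cx3cr1 under 3 each.

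For Cxcr4 in monocytic-like cells, the log2 ratio was −1.23 with the same mixture of clusters, −0.69 at no more than 5% mitochondrial UMIs, −0.63 as the mean CPM of single cells and −0.33 thinned to 1000 UMIs. For Ccrl2 in granulocytic-like cells it was −0.62 in cells with a Ptprc UMI, −0.48 with TMM, −0.61 with median of ratios and −0.44 with the same mixture. In monocytic-like cells 1 member, Cxcr4, became past 2-fold lower in cells with a Ptprc UMI (−1.01, where 1.73% of genes were), in the Thbs1 and Ccl5 clusters alone (−1.03, 1.87%) and with median of ratios scaling (−1.08, 3.39%). Ackr3 became 1 past 2-fold higher at the stricter mitochondrial limit (1.28, 9.81% of genes), and was at 1.26 as the mean CPM of single cells. In granulocytic-like cells 1 became past 2-fold higher with the lineage taken cell by cell, Ccr2 (2.11, 8.37% of genes), which gave 97.5% of cells the same lineage. With no minimum of UMIs 1 is counted there, Ackr3 with 11 UMIs against 0, for which no fold is given because both are at or under the floor, where 29.4% of genes are counted. The cause of these shifts was not tested. The same mixture and the Thbs1 and Ccl5 clusters alone were chosen after seeing the data. Leaving out shared barcodes changed nothing, since there were 0.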

Other observations

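In the cluster of 9 and 56 lymphocytes Cxcr4 stood at 132 CPM (57.1 to 260.5) and 215 CPM (167 to 273) in the libraries labelled 4T1p and 4T1m, and 44.4% and 57.1% of these cells had a UMI of it. Of the 6 receptors it was the highest there in the library labelled 4T1m, while Ccrl2 was at 149 and 83.5 CPM and Ccr2 at 16.5 and 51.4 CPM. The monocytic marker list had 4.09% and 40.5% of its monocytic level in this cluster, and its part in these values was not tested. At Louvain resolution 1.2 the cluster divided into cells led by Igkc and Ebf1 (1 and 35) and cells led by the T cell receptor gene Trbc2 and by Cd3g (8 and 21). In the library labelled 4T1m Cxcr4 was at 253 CPM (184 to 338) in the Igkc cells and 165 CPM (103 to 250.04) in the Trbc2 cells, and Ccr2 had 0 UMIs in the former and 16 in the latter, 120 CPM (68.7 to 195).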
